A study of Mus musculus with 2 samples.

Results

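The replication-dependent histone genes of the mouse were followed by class in 2 total RNA libraries of G1E-ER4 cells. A protein-coding gene was a member if its symbol in the GENCODE M21 annotation began with Hist1h, Hist2h, Hist3h or Hist4h, and the rest of the symbol gave its class. The rule found 67 genes, 6 of H1, 18 of H2A, 18 of H2B, 12 of H3 and 13 of H4. Of these, 64 had a row in the gene tables, out of 21461 nuclear protein-coding genes with a row. The other 3, Hist1h2bm, Hist1h2bh and Hist2h2bb, belong to the H2B class and have no value here. The rule itself uses symbols alone.

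G1E-ER4 is an immortalized erythroid line of strain C57BL/6J, labelled male, whose endogenous Gata1 is absent and in which this erythroid transcription factor was restored in a form that needs estradiol to act. Both libraries came from cells given 17beta-estradiol at 10 nM for 24 h, and each was made from 100 ng of RNA after removal of ribosomal RNA. They are biological replicates 1 and 2 of 1 group, and no library of untreated cells was analysed here. The comparison below is therefore between the replicates, as a description of these 2 libraries with no replicate check of its own and no p-value.

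The gene tables summed to 41051163 expected counts in replicate 2 and 62081014 in replicate 1. An expected count is a number of reads that a model assigned to a gene, and TPM, a measure of transcript abundance, is that count divided by the modelled length and scaled to the same total in every library. The libraries differed by more than sampling noise, with a chi-square of 75.8 per degree of freedom over 12223 genes. All 10 erythroid markers were at or above 1 TPM in both libraries, Gata1 among them at 73.2 TPM in replicate 2 and 60.1 TPM in replicate 1. Since the line lacks endogenous Gata1 and carries a restored form, the level of Gata1 does not mark cell type here. Of the 10 myeloid markers, 1 passed 1 TPM in both libraries (Spi1, 1.22 and 1.78 TPM in replicates 2 and 1), and their sum was 2.92 TPM in replicate 2 and 1.93 TPM in replicate 1. Spi1 and Csf1r were higher in replicate 1. All the other myeloid markers were higher in replicate 2 at few counts, such as Mpo with 62 in replicate 2 and 16 in replicate 1. S100a8 had 15 and 1 in the same order. Of 8 megakaryocyte markers, 3 passed 1 TPM in both libraries, and the list summed to 13.8 TPM in replicate 2 and 11.3 TPM in replicate 1. The mast cell list summed to 1.43 TPM in replicate 2 and 1.27 TPM in replicate 1. The lymphoid list summed to 0.07 TPM in replicate 2 and 0 TPM in replicate 1, and the male germ cell list to 0.21 and 0.08 TPM in the same order.

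Replication-dependent histones package newly copied DNA. H2A, H2B, H3 and H4 form the core of the nucleosome, and H1 binds the DNA that links nucleosomes. Their genes lie in clusters and lack introns, and most of their mRNAs end just after a stem-loop instead of a poly(A) tail. The stem-loop is bound by the protein SLBP, and the mRNAs accumulate while DNA is being replicated. Libraries of total RNA depleted of ribosomal RNA, unlike libraries of poly(A) RNA, can hold such mRNAs.

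The stem-loops are shown because their letters separate H4 from the other classes. A stem-loop was sought on the sense strand of the annotated 3′ UTR as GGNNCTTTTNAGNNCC, with the last 6 bases the reverse complement of the first 6. Of the 67 members, 50 had an annotated 3′ UTR of at least 50 bases, and 44 of these (88.0%) held the stem-loop, 21 to 58 bases after the stop codon with a median of 31. Among 20744 other protein-coding genes with such a UTR, 4 held one (0.0193%): H2afx, H2bfm, Nova2 and Syncrip. The 44 stem-loops had 6 spellings of their 16 bases, each shown once below from GRCm38 in transcript sense, with the 16 bases in capitals.
Hist2h2aa1: aaaGGCTCTTTTCAGAGCCacc
Hist1h2bk: aaaGGCTCTTTTAAGAGCCact
Hist2h2ac: aaaGGCTCTTTTTAGAGCCacc
Hist1h4d: aaaGGCCCTTTTCAGGGCCact
Hist1h4i: aaaGGCCCTTTTTAGGGCCacc
Hist1h4b: aaaGGTCCTTTTCAGGACCact
The capitals lie at chr3:96246032-96246047 on the plus strand for Hist2h2aa1 and at chr13:22036300-22036315 on the plus strand for Hist1h2bk. Those of Hist2h2ac lie at chr3:96220418-96220433 on the minus strand, and those of Hist1h4d at chr13:23581950-23581965 on the plus strand. Those of Hist1h4i lie at chr13:22040966-22040981 on the minus strand, and those of Hist1h4b at chr13:23757366-23757381 on the plus strand. The spelling shown for Hist2h2aa1 was that of 26 members, from H1, H2A, H2B and H3. The spelling of Hist1h2bk was that of 6 members, and that of Hist2h2ac of 1. The 11 H4 stem-loops used the other 3 spellings, with 7 genes like Hist1h4d, 2 like Hist1h4i and 2 like Hist1h4b. All 33 stem-loops outside H4 began with GGCTC, and none of the 11 in H4 did.

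Promoters also differed in their letters by class. Windows from 250 bases before to 50 bases after the start were taken from RefSeq on GRCm38.p6, and 62 of the 67 members matched one by symbol or synonym. Each of 5 letter strings, none of which contains another, was sought on both strands in these and in all 32851 promoters of the same table. The string GGTCCG, part of a known H4 promoter element, was in 11 of 12 H4 promoters, in 2 of the other member promoters and in 8.25% of all promoters. CCAAT was in every H1, H2A, H2B and H3 promoter matched, in 3 of 12 H4 promoters and in 37.4% of all promoters. The octamer ATTTGCAT was in 7 of 18 H2A and 7 of 16 H2B promoters, in no H1, H3 or H4 promoter, and in 1.74% of all promoters. AAACACA, the H1 box, was in 5 of 6 H1 promoters, in 4 H2A or H2B promoters and in 7.18% of all promoters. TATAAA was in 35 of 62 member promoters (56.5%) and in 13.6% of all promoters. A match is only a match of letters in this window. Windows of H2A and H2B genes that stand head to head can overlap, so 1 copy of a string can count for both. Hist1h2ah and Hist1h2bk share their octamer in this way, as do Hist1h2ae and Hist1h2bg, and Hist1h2aa and Hist1h2ba. The TATAAA counted for Hist1h2bk, Hist1h2bf, Hist1h2bn and Hist1h2bp is that of the H2A neighbour on the opposite strand. That counted for Hist1h2ae is that of Hist1h2bg. The 4 promoters below, 1 each of an H4, H1, H2B and H3 gene, show the strings found, in capitals in either orientation. The octamer of Hist1h2bb and the TATAAA of Hist1h3b are in under 50% of the promoters of their classes.
Hist1h4k: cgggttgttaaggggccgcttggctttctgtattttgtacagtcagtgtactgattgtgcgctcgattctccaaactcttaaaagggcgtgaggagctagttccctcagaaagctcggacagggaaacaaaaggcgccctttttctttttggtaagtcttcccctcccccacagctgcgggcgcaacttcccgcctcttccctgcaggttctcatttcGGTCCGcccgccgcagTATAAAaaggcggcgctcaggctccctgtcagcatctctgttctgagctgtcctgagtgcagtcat
Hist1h1d: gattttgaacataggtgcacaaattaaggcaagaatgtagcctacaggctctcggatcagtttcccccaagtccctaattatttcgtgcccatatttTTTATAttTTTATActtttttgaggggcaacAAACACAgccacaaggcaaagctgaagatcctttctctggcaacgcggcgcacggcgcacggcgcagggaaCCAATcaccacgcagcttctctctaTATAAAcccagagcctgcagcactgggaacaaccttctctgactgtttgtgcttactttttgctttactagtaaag
Hist1h2bb: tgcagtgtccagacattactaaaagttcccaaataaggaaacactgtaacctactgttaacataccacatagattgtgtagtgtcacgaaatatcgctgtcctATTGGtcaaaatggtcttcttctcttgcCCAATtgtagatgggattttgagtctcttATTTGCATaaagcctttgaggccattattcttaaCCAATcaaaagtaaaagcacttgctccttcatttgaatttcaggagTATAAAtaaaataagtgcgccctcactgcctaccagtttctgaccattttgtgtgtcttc
Hist1h3b: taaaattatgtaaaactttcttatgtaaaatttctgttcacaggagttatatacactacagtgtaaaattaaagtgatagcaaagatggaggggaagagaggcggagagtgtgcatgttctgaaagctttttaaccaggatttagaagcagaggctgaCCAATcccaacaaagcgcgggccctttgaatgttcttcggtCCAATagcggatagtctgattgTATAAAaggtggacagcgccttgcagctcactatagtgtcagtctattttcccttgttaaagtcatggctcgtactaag
In gene sense, that of Hist1h4k lies at chr13:21750504-21750803 on the minus strand, with GGTCCG and TATAAA but no CCAAT. That of Hist1h1d lies at chr13:23554782-23555081 on the plus strand, with the H1 box, CCAAT and 3 TATA boxes, 2 of them on the opposite strand. That of Hist1h2bb lies at chr13:23746484-23746783 on the plus strand, with the octamer ATTTGCAT between copies of CCAAT. That of Hist1h3b lies at chr13:23752095-23752394 on the plus strand, with CCAAT and TATAAA.

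By mean TPM over both libraries, many histone genes ranked among the most abundant protein-coding transcripts. Of the 64 members, 56 (87.5%) were at or above 1 TPM in both libraries, against 7781 of 21461 protein-coding genes (36.3%). Ranked by mean TPM, 6 members stood among the 100 highest protein-coding genes and 34 among the 500 highest. Together the members summed to 7488 TPM in replicate 2 and 3273 TPM in replicate 1, which was 5.20% and 2.32% of the TPM of nuclear protein-coding genes in replicates 2 and 1. The mean share of both libraries was 3.76% in TPM but 0.665% in counts not divided by length. A single gene's level is less certain than a class sum, because reads of near-identical copies are split between them by a model and because many of these genes are short.

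**Figure D1:**
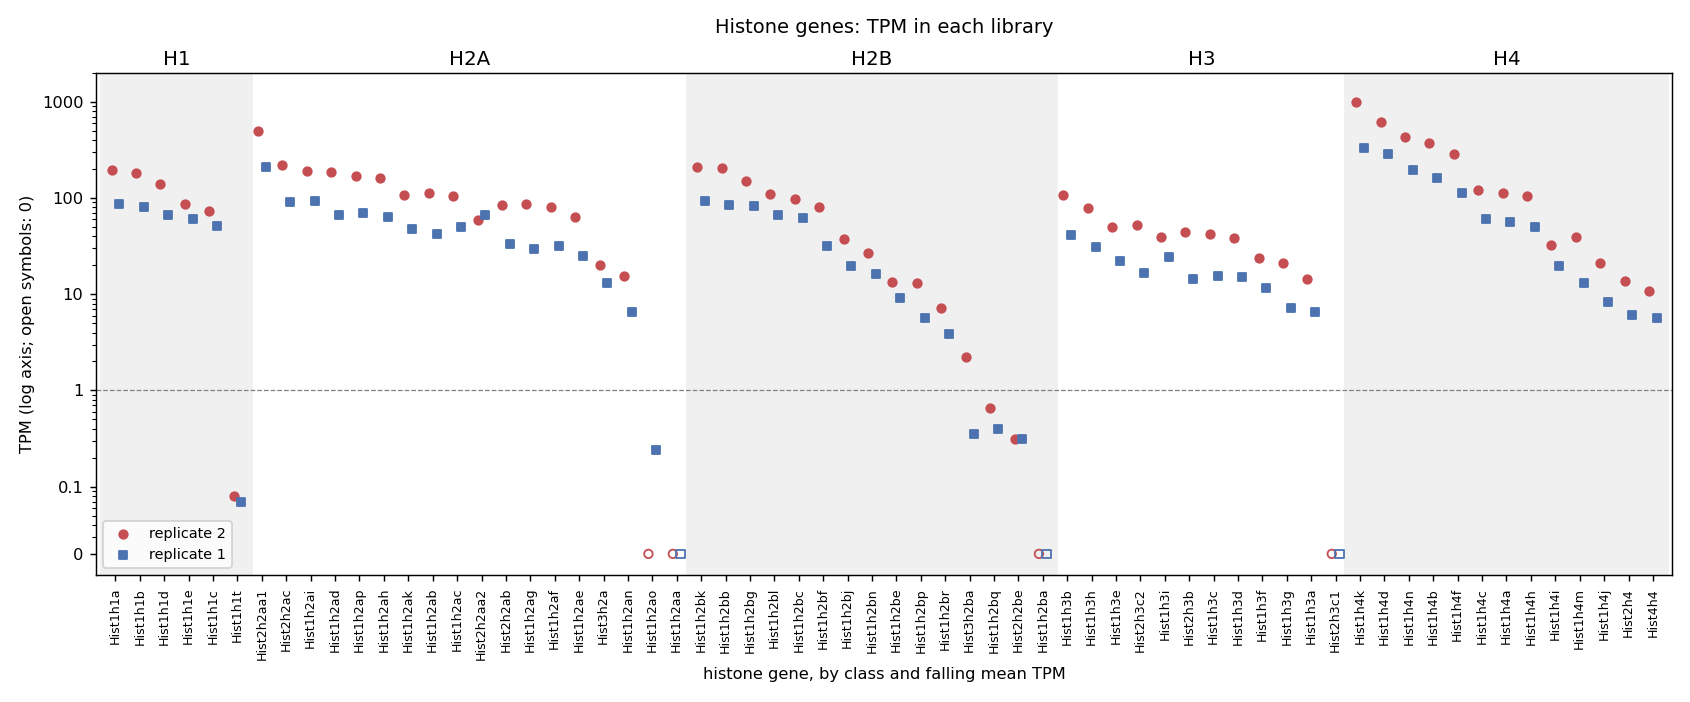
TPM (log axis) of each of the 64 histone genes with a row, by class and falling mean, with replicate 2 as red circles and replicate 1 as blue squares; open symbols mark 0 and the dashed line 1 TPM. In each class most genes lie well above 1 TPM, 8 genes lie under 1 TPM in at least 1 library, and replicate 2 lies above replicate 1 for most genes.

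H4 held the largest share of the histone TPM and H3 the smallest of the 5 classes. H4 made up 42.3% in replicate 2 and 40.0% in replicate 1, H2A 29.0% and 28.7%, H2B 12.8% and 14.5%, H1 9.11% and 10.5%, and H3 6.86% and 6.27%, always in that order of libraries. As a ratio of summed TPM, H4 stood at 6.27 ± 0.143 times H3 and H2A at 2.12 ± 0.210 times H2B (SD, n = 2). A nucleosome holds equal numbers of the 4 core histone proteins, which RNA levels do not measure. The H3 and H2A sums also leave out the variants outside the members. Those of H3 came to 528 TPM in replicate 2 and 508 TPM in replicate 1. The H2B sum covers 15 of the 18 H2B genes, since the others have no row, while the other classes are complete. H4 over H3 depended on length, at 4.61 ± 0.342 per annotated length and 3.15 ± 0.322 in counts not divided by length. The order of H4 and H2A rests on how length was handled. Per modelled effective length (TPM) H4 exceeded H2A 1.43 ± 0.0484 times, per annotated length 1.16 times (a choice made after seeing the data), and in counts not divided by length it stood at 0.957 times H2A. H3 stayed last under all of these measures, and H1 moved to 20.3% ± 1.63 of the counts (SD, n = 2). Its genes had a median effective length of 524 bases in replicate 2 and 541 in replicate 1, against 265 and 281 bases over all members.

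**Figure D2:**
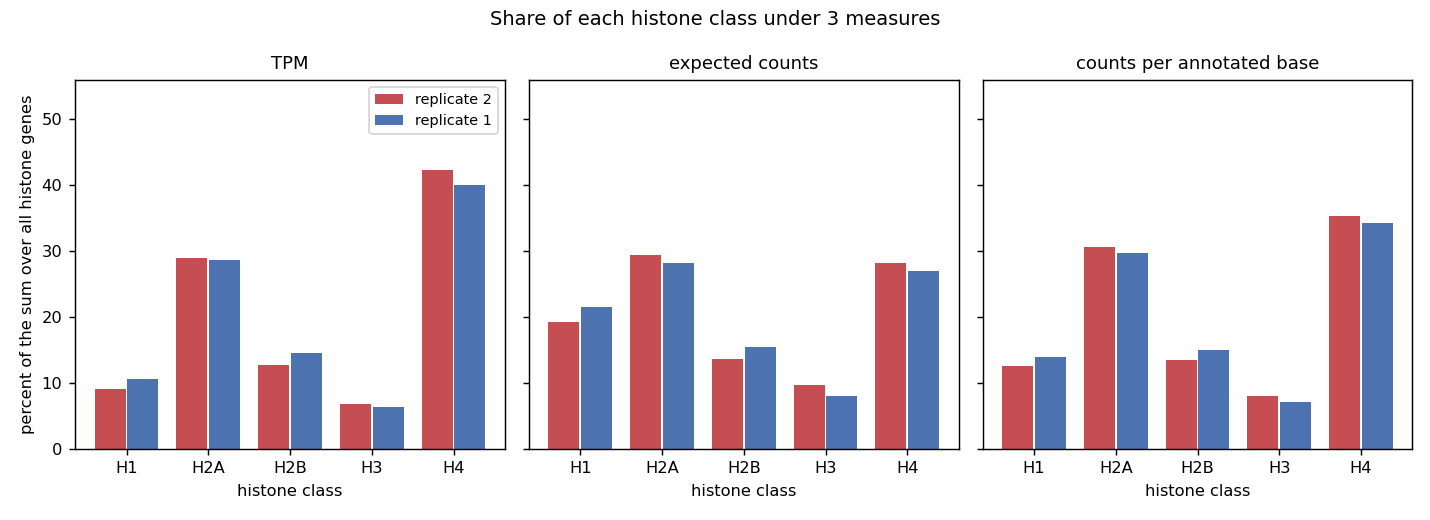
Share of each histone class in the sum over all 64 genes, in percent, by TPM (left), by expected counts (middle) and by counts per annotated base (right), with replicate 2 in red left of replicate 1 in blue. H4 leads by TPM and per annotated base and lies just under H2A by counts, and both libraries give nearly the same shares.

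All 13 H4 genes encode 1 protein of 103 residues, and all 13 were at or above 1 TPM in both libraries. Hist1h4k was the highest of all members, with 1003 TPM in replicate 2 and 333 TPM in replicate 1. Its rank was 9 among protein-coding genes. Its model in the deposited tables holds only the 312 coding bases, so its effective length was 99.98 bases in replicate 2 and 114 in replicate 1, and its TPM depends strongly on that model. Hist1h4d, with more reads than Hist1h4k but a longer model, had 622 TPM in replicate 2 and 287 TPM in replicate 1. Hist1h4n had 427 TPM in replicate 2 and 194 TPM in replicate 1, and Hist1h4b 376 and 161 TPM in replicates 2 and 1. The lowest H4 gene was Hist4h4, alone on chromosome 6, at 10.7 TPM in replicate 2 and 5.70 TPM in replicate 1. The 13 genes of 1 protein spanned mean levels of 8.20 to 668 TPM.

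The 18 H2A genes encode 9 distinct proteins. A group of 9 genes for 1 protein, which includes Hist1h2ai and Hist1h2ad, held 41.9% ± 1.5 of the H2A TPM (SD, n = 2). Hist2h2aa1 and Hist2h2aa2, neighbours in opposite orientation that encode 1 protein, held 27.6% ± 2.40. Hist2h2aa1 was the highest H2A gene, with 503 TPM in replicate 2 and 209 TPM in replicate 1, while its near-identical partner Hist2h2aa2 had 58.7 TPM in replicate 2 and 66.2 TPM in replicate 1. Hist2h2ac had 222 TPM in replicate 2 and 91.1 TPM in replicate 1. Hist1h2ai had 191 TPM in replicate 2 and 94.1 TPM in replicate 1, and Hist1h2ad 185 and 66.1 TPM in replicates 2 and 1.

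The 15 measured H2B genes encode 8 distinct proteins, and by TPM the leading ones were close. In counts not divided by length the protein of Hist1h2bg led, with 44.7% of H2B. Hist1h2bc, Hist1h2be and Hist1h2bg, for 1 protein, held 29.8% ± 3.53 of the H2B TPM, and a group of 6 genes led by Hist1h2bl held 28.5% ± 0.932. Hist1h2bk alone held 20.7% ± 1.58 and Hist1h2bb alone 19.5% ± 2.67 (SD, n = 2 in each case). By level, Hist1h2bk had 208 TPM in replicate 2 and 93.1 TPM in replicate 1, and Hist1h2bb 205 and 84.0 TPM in replicates 2 and 1. Hist1h2bg followed with 151 TPM in replicate 2 and 81.9 TPM in replicate 1, and Hist1h2bl with 111 and 66.5 TPM in replicates 2 and 1. All 4 were higher in replicate 2.

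The 12 H3 genes encode 2 proteins that differ at 1 of 136 residues. The form known as H3.2, from 8 genes including Hist1h3b, held 70.2% of the H3 TPM in replicate 2 and 66.6% in replicate 1. The form known as H3.1, from Hist1h3a, Hist1h3g, Hist1h3h and Hist1h3i, held 29.8% in replicate 2 and 33.4% in replicate 1. In counts not divided by length the H3.2 share was 82.7% ± 2.05 (SD, n = 2). Hist1h3b had 109 TPM in replicate 2 and 40.8 TPM in replicate 1, Hist1h3h 78.1 and 30.6 TPM, Hist1h3e 50.4 and 22.2 TPM, and Hist2h3c2 52.6 and 16.7 TPM, in the same order.

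Each of the 6 H1 genes encodes its own protein. Hist1h1a had 197 TPM in replicate 2 and 85.9 TPM in replicate 1, and Hist1h1b 183 and 81.5 TPM in replicates 2 and 1. Hist1h1d had 140 TPM in replicate 2 and 66.6 TPM in replicate 1, and Hist1h1e 87.5 and 60.6 TPM in replicates 2 and 1. Hist1h1c, at 74.1 TPM in replicate 2 and 50.7 TPM in replicate 1, drew the most reads of the class, with 14140 counts in replicate 2 and 14119 in replicate 1, over the longest H1 model at 1560 bases.

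Few members were near zero. Means under 1 TPM were found for Hist1h1t, Hist1h2aa, Hist1h2ao, Hist1h2ba, Hist1h2bq, Hist2h2be and Hist2h3c1. Hist1h1t, Hist1h2aa and Hist1h2ba are known as testis histones: Hist1h1t drew 6 counts in replicate 2 and 8 in replicate 1, and the other two drew 0. Hist2h3c1 drew 0 counts in both libraries, although Hist2h3c2, which encodes the same protein, drew 5990 in replicate 2 and 2804 in replicate 1. Here 0 counts allow up to 3 counts, or 0.0132 TPM in replicate 2 and 0.00904 TPM in replicate 1 for Hist2h3c1, by counting error alone. The deposited interval of its modelled level, whose coverage is not given in the sources used here, reached 1.11 TPM in replicate 2 and 0.237 TPM in replicate 1. The 4 of these genes with reads in a library (Hist1h1t, Hist1h2ao, Hist1h2bq and Hist2h2be) had 0 to 0.66 TPM. The level of Hist1h2ao, which encodes the same protein as Hist1h2ap, is uncertain. Its deposited upper bound was 0.526 TPM in replicate 2 and 1.14 TPM in replicate 1. Hist3h2ba, named after its values were seen, had 2.23 TPM in replicate 2 and 0.35 TPM in replicate 1, so it passed 1 TPM in replicate 2 only.

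H2A and H2B genes often stand head to head, and such neighbours were not equally abundant. By annotated starts, 12 H2A and H2B pairs lay in opposite directions with 176 to 306 bases between their starts, and 10 had reads for both genes in both libraries. By TPM, the H2A gene was the higher in both libraries in 7 pairs and the H2B gene in 2. These numbers depend on length, since partners often had models of unlike length. In counts not divided by length, Hist1h2an stood below Hist1h2bp, at 390 against 496 in replicate 2 and 254 against 345 in replicate 1. Hist1h2ac then stood below Hist1h2bc in both libraries, at 3837 against 7112 and 2776 against 6848 in the same order. The rest of the 10 kept their order. Hist2h2ac stood at 222 TPM in replicate 2 and 91.1 TPM in replicate 1, against 0.31 TPM in each library for Hist2h2be, whose start lies 239 bases away. This pair was the most unequal, with a log2 ratio of 8.84 ± 0.91 in TPM (SD, n = 2). The model of Hist2h2be is 2620 bases long and that of Hist2h2ac 520 bases. Their counts were 107 and 9515 in replicate 2 and 154 and 5931 in replicate 1. At the other end Hist1h2ae, at 64.2 TPM in replicate 2 and 24.8 TPM in replicate 1, stood below Hist1h2bg, at 151 and 81.9 TPM. Hist1h2ac and Hist1h2bc changed order between libraries in TPM, with log2 ratios of 0.12 in replicate 2 and −0.34 in replicate 1. Across the 10 pairs the mean levels of the partners had a Spearman correlation of −0.18, as a description of genes that share both libraries.

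**Figure D3:**
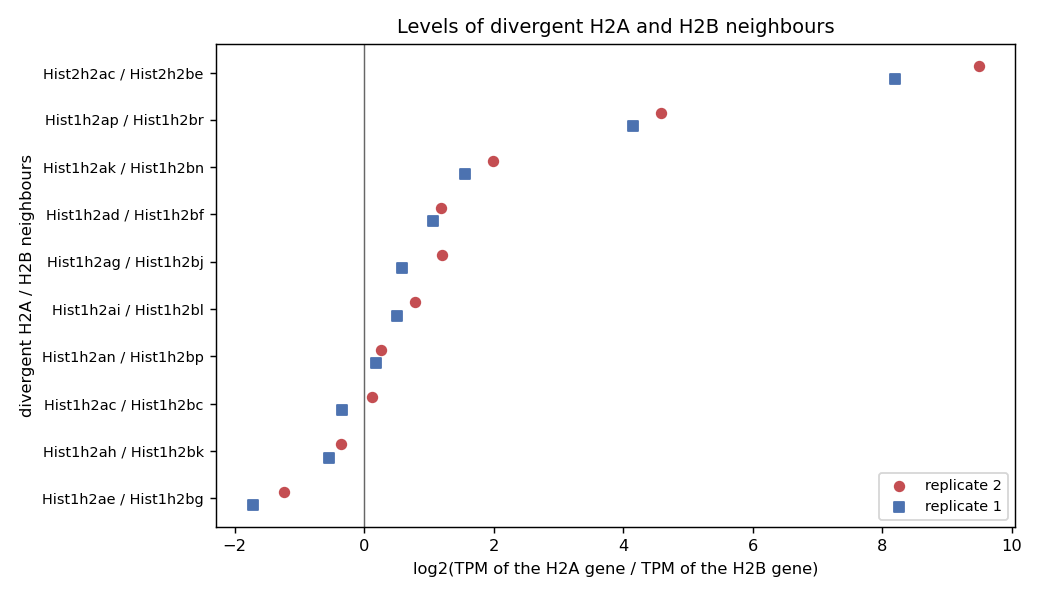
Log2 of the TPM of the H2A gene over that of its H2B neighbour for 10 divergent pairs, with replicate 2 (red circles) above replicate 1 (blue squares). Points right of 0 have more H2A; 7 pairs lie right of 0 in both libraries, 2 left of 0 in both, and 1 crosses 0.

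By genome block, the Hist1 genes fall into 2 blocks on chromosome 13 more than 1000000 bases apart. The block with 30 measured genes held 46.9% of the histone TPM in replicate 2 and 48.7% in replicate 1, and the block with 22 genes 39.5% and 37.3%. The 9 Hist2 genes on chromosome 3 held 13.1% in replicate 2 and 13.3% in replicate 1. The summed TPM was 2.20-fold, 2.42-fold and 2.24-fold higher in replicate 2 for these blocks in the same order.

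Histone transcripts were more abundant in replicate 2 than in replicate 1, in every class. Of the 58 members over a minimum mean count of 100, 39 were 2-fold or more higher in replicate 2 and 0 were 2-fold or more lower, where 1.49% of all 8908 protein-coding genes over the same minimum were 2-fold or more higher and 0.225% as much lower. The ratio was taken on CPM, counts scaled to library size, with TMM factors. The median log2 ratio was 1.12 over the members and −0.01 over all these genes, whose quartiles were −0.15 and 0.15. The ratio was above 0 for 57 of the 58. The members were 29.3% of the 133 genes that were 2-fold or more higher in replicate 2, and the remaining 94 were 1.06% of the 8850 other genes. The 6 members under the minimum count have no ratio here. Replicate 2, with the smaller total, had counts in more rows, 19353 against 16115 in replicate 1, and with no minimum count 17.6% of all protein-coding genes were 2-fold or more higher in it. The part of this difference between the libraries in the histone ratio was not tested.

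The class medians of the log2 ratio were 1.06 for H1, 1.25 for H2A, 0.83 for H2B, 1.29 for H3 and 1.07 for H4. Past 2-fold were 3 of 5 H1, 13 of 16 H2A, 4 of 13 H2B, 10 of 11 H3 and 9 of 13 H4 genes. Differences between classes were not tested. Hist2h3c2 had the largest ratio, with 5990 counts in replicate 2 and 2804 in replicate 1 and a log2 ratio of 1.66. Hist2h3b followed at 1.57, Hist1h2ag and Hist1h4m at 1.51 each, and Hist1h3g at 1.49. These 5 genes had more counts in replicate 2, the smaller library, also before scaling.

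The smallest ratios were those of Hist2h2aa2 at −0.21, Hist2h2be at 0.04, Hist1h1e at 0.52, Hist1h1c at 0.57 and Hist1h2be at 0.58. Among the 58, Hist2h2aa2 is the 1 member lower in replicate 2, with 2577 counts in replicate 2 and 4421 in replicate 1. Hist2h2aa1 encodes the same protein, and whether reads are shared between the genes was not tested. The pair summed to 28845 counts in replicate 2 and 20856 in replicate 1, a log2 ratio of 1.03. With copies of each protein summed, a choice made after seeing the data, 16 of 22 proteins were 2-fold or more higher in replicate 2. Hist2h2be drew few reads, 107 in replicate 2 and 154 in replicate 1. In GENCODE M21, Hist1h1e, Hist1h1c and Hist1h2be have transcripts that run 1153, 840 and 1861 bases past the stem-loop, while that of Hist1h1d, with a ratio of 1.06, runs 4884 bases past it. The counts come from the older M4 models, and not all of these contain such ends. The models of Hist1h1e, at 748 bases, and Hist1h1d, at 744 bases, are shorter than the ends themselves. Those of Hist1h1c, at 1560 bases, and of the transcript Hist1h2be-201, at 2433 bases, are long enough to hold them.

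Across the 38 members with both a ratio and a stem-loop, the log2 ratio and the length of the M21 transcript past the stem-loop had a Spearman correlation of −0.43, as a description of genes that share both libraries. The counted M4 models often lack that length (393 bases in all for Hist1h4d, against 770 past its stem-loop), and with their own length the correlation was −0.25 over 58 members. Of the 20 whose M21 transcript ends within 100 bases of the stem-loop, 18 were 2-fold or more higher in replicate 2, with a median log2 ratio of 1.24. Of the 18 that run further, 10 were, with a median of 1.03. The 100-base limit was chosen after the values were seen, and the difference was not tested. The ratio had a Spearman correlation of 0.13 with mean TPM over the 58 members.

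**Figure D4:**
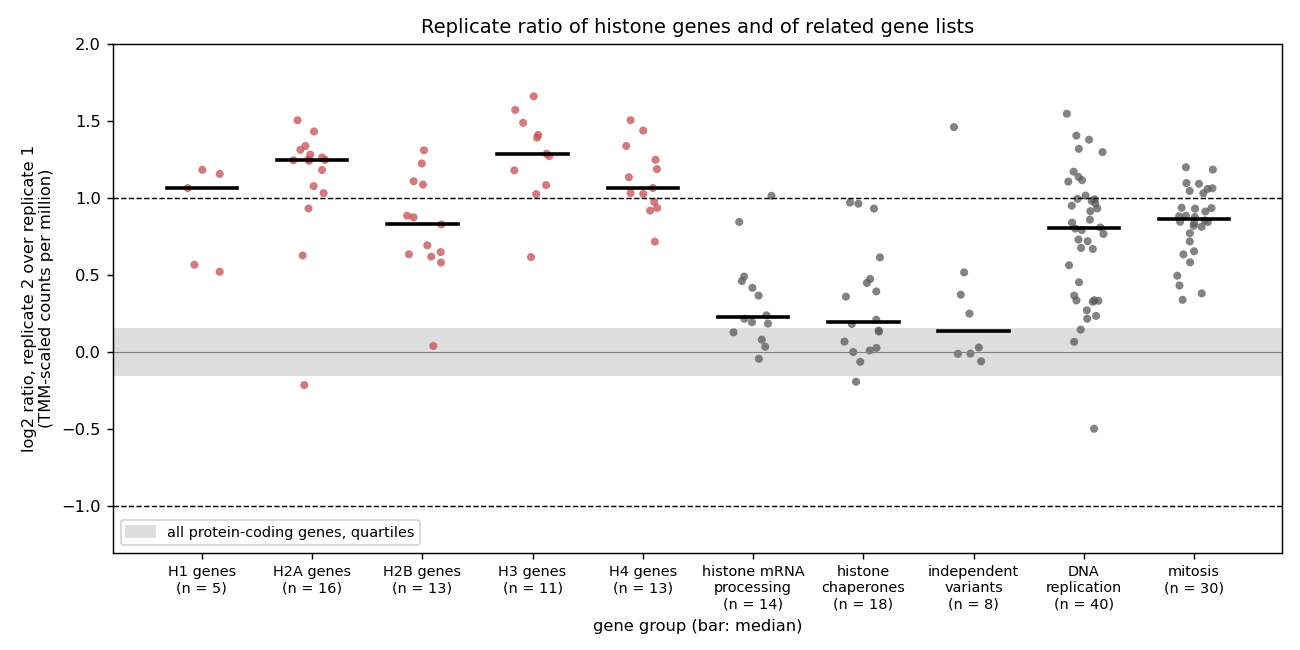
Log2 ratio of replicate 2 over replicate 1 (TMM-scaled CPM) for histone genes by class in red and for related gene lists in grey, each point a gene over the minimum mean count of 100 and each bar a median; the grey band spans the quartiles of all protein-coding genes and the dashed lines mark 2-fold. Medians of the histone classes lie between 0.83 and 1.29, those of the DNA replication and mitosis lists at 0.81 and 0.87, and those of the other lists between 0.14 and 0.23.

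Genes of DNA replication and mitosis were also more abundant in replicate 2, with smaller median ratios than the histone genes as a whole, though that of H2B alone lay below the mitosis list. Of 40 DNA replication genes, 10 were 2-fold or more higher in replicate 2 and 0 lower, with a median log2 ratio of 0.81 and a range of −0.50 to 1.55. Over all protein-coding genes above the minimum count, 1.49% were 2-fold or more higher and 0.225% as much lower. The list summed to 484 TPM in replicate 2 and 298 TPM in replicate 1. Its 4 highest genes were Rpa1, a subunit of the single-strand binding protein RPA, at 37.2 and 26.6 TPM, Gmnn, the licensing inhibitor geminin, at 28.01 and 22.3 TPM, Rrm1, a subunit of ribonucleotide reductase, at 28.6 and 16.1 TPM, and Fen1, a flap endonuclease, at 26.1 and 16.5 TPM, with replicate 2 given before replicate 1. Of 30 mitosis genes, 8 were 2-fold or more higher in replicate 2 and 0 lower, with a median log2 ratio of 0.87. Its highest genes were Top2a (topoisomerase) with 83.2 TPM in replicate 2 and 48.9 TPM in replicate 1, Ccnb1 (a mitotic cyclin) with 61.7 and 38.7 TPM, Ube2c (a ubiquitin-conjugating enzyme of mitotic exit) with 46.6 and 33.2 TPM, and Ccna2 (a cyclin of S phase and mitosis) with 49.0 and 28.7 TPM. The 10 erythroid markers had a median log2 ratio of 0.32. In bulk RNA, fewer cells in a phase of the cell cycle and less RNA per cell cannot be told apart. The part of cell-cycle genes, and of the myeloid and erythroid markers above, in the histone difference was not tested.

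Genes that process the histone mRNA 3′ end, listed together with regulators, stood closer between replicates. Of the 15 listed genes, 12 were at or above 1 TPM in both libraries, and of 14 with a ratio 1 was 2-fold or more higher in replicate 2 and 0 lower, with a median log2 ratio of 0.23. Over all protein-coding genes above the minimum count, 1.49% were 2-fold or more higher. The regulators Npat, Ccne1, Ccne2 and Cdk2 are counted in the list. Slbp, which binds the stem-loop, had 34.5 TPM in replicate 2 and 31.3 TPM in replicate 1, a log2 ratio of 0.19. Of the cleavage factors, Cpsf2 had 26.6 TPM in replicate 2 and 23.8 TPM in replicate 1, Cpsf3, the endonuclease, 7 and 6.74 TPM, Sympk 7.06 and 6.45 TPM, and Cstf2 6.63 and 4.45 TPM. Of the parts of the U7 snRNP, which pairs with histone pre-mRNA, Lsm10 had 8.36 TPM in replicate 2 and 8.42 TPM in replicate 1 and Lsm11 0.32 and 0.20 TPM. Rnu7, the U7 RNA itself, drew 0 counts in both libraries, which were made from fragments of 200 to 1000 bases. Npat, the coactivator of histone genes, had 3.79 TPM in each library, and Casp8ap2, which works with it, 8.87 TPM in replicate 2 and 8.04 TPM in replicate 1. Zfp473, whose human counterpart binds the U7 complex, had 0.39 TPM in replicate 2 and 0.16 TPM in replicate 1, and Eri1, a nuclease of the histone mRNA end, 6.98 and 6.14 TPM. Ccne2, a cyclin E that acts with Cdk2 on Npat, was the 1 gene past 2-fold, with 3.92 TPM in replicate 2 and 2.01 TPM in replicate 1 and a log2 ratio of 1.02. Ccne1 had 23.9 TPM in replicate 2 and 16.7 TPM in replicate 1, and Cdk2 7.04 and 5.21 TPM.

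All 18 histone chaperones and assembly factors were at or above 1 TPM in both libraries, and 0 of them were 2-fold or more higher or lower, with a median log2 ratio of 0.20. Of all protein-coding genes over the minimum count only 1.49% were 2-fold or more higher, so 0 of 18 does not set this list apart. The largest ratios, named after their values were seen, were 0.97 for Chaf1b and 0.96 for Chaf1a, subunits of the replication-coupled chaperone CAF-1, and 0.93 for Asf1b. Supt16 and Ssrp1, the subunits of the chaperone FACT, were among the 4 highest. Supt16 had 38.2 TPM in replicate 2 and 35.6 TPM in replicate 1, and Ssrp1 24.5 and 18.6 TPM. Atrx, a remodeller that helps deposit H3.3, had 26.5 TPM in replicate 2 and 26.3 TPM in replicate 1, and Nap1l1, a chaperone of H2A and H2B, 20.7 and 20.5 TPM.

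Of the 12 variants listed as replication-independent, 8 were at or above 1 TPM in both libraries, and 1 of 8 with a ratio, H2afx, was 2-fold or more higher in replicate 2. Of all protein-coding genes over the minimum count, 1.49% were. The list was made by name, without regard to the stem-loop. H2afx, which marks DNA breaks once phosphorylated and is 1 of the 4 genes outside the members with the histone stem-loop, had 42.8 TPM in replicate 2 and 15.7 TPM in replicate 1, a log2 ratio of 1.46. The others stayed under 2-fold, with a median log2 ratio of 0.14 over the 8. H3f3a, which encodes H3.3, had 422 TPM in replicate 2 and 421 TPM in replicate 1, H3f3b, for the same protein, 80.3 and 69.5 TPM, and H2afz, for H2A.Z, 317 and 261 TPM. Set against the variants of their own class, replication-dependent genes held 84.8% of the H2A TPM in replicate 2 and 75.4% in replicate 1 (6 variants, H2afx among them). They held 49.3% of the H3 TPM in replicate 2 and 28.8% in replicate 1 (3 variants). Both shares are of TPM, which depends on length. In counts not divided by length, the replication-dependent H3 genes drew 28401 in replicate 2 and 16726 in replicate 1. H3f3a alone drew more, at 48216 and 74370 in the same order.

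Among members over the minimum count, the split of reads among copies was least certain for Hist1h4m, Hist2h2aa2 and Hist1h2bq. The deposited posterior SD of the count was on average 20.7%, 9.72% and 9.01% of its mean for these genes. It passed 1% of the count in 27 of the 58 members over the minimum count (46.6%), against 3.04% of the 8908 protein-coding genes. By class it did so in 0 of 5 H1, 11 of 16 H2A, 7 of 13 H2B, 6 of 11 H3 and 3 of 13 H4 genes. Reads of a gene and of an antisense neighbour may also be mixed, since the use of strand in counting is not given in the sources used here.

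Most members had 1 transcript in the deposited transcript tables. Hist1h2be had 3, of which Hist1h2be-201 held 71.3% ± 9.22 of the gene's TPM, Hist1h2be-203 18.2% ± 6.10 and Hist1h2be-202 10.6% ± 3.13 (SD, n = 2).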

How the data were processed

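Both libraries were made from rRNA-depleted RNA of estradiol-treated G1E-ER4 cells, and each had its own gene and transcript tables. Expected counts, TPM and FPKM per gene were deposited by the authors, with posterior means, posterior SDs of the count and bounds of the TPM, per the file headers. The transcript tables, also deposited by the authors, give the percent that each transcript takes of its gene. The assembly is mm10 and the annotation M4, per the deposited file lists; the program, its version and the use of strand are not given in the sources used here. Rows were matched by gene ID without version to GENCODE M21 (GRCm38), which named 42462 of 43346 Ensembl rows; rows with no Ensembl gene held 2.9e-05% of the counts in replicate 1.

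The members and the gene lists were chosen with earlier results of these data known. The genes named were the 4 members of highest mean TPM per class, those with a mean under 1 TPM, the 5 largest replicate ratios at either end, the 3 largest relative posterior SDs, the 4 highest of each related list and all genes of histone mRNA processing. Ratios of replicate 2 over replicate 1 were taken in R 4.3.3 with edgeR 4.0.16 on CPM with TMM factors (1.01 in replicate 2 and 0.989 in replicate 1), a prior count of 0.5 and a mean expected count of at least 100. With 1 library on either side there was no test, and 2-fold was the limit. DESeq2 1.42.0 size factors (on rounded counts), other units, filters and prior counts were alternatives. Members with the same translated coding sequence in GENCODE M21 were summed as 1 protein, stem-loops were read from its transcripts, and promoters were taken from RefSeq. Figures and other sums used Python 3.11 with pandas 2.3.3 and matplotlib 3.10.9.

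The floor of 3 counts covers counting error alone, since reads counted without molecular identifiers are not independent. The labels call the libraries biological replicates and do not say whether the cultures were separate, so the SDs measure only the spread between these 2.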

Additional observations from a re-analysis of the deposited data

Results flagged for a closer look

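2 histone rows that the annotation calls processed pseudogenes, and which therefore fall outside the members, drew reads above 3 counts in both libraries. Hist1h2al had 326 TPM in replicate 2 and 130 TPM in replicate 1, a mean of 228 TPM, with 7476 counts in replicate 2 and 4710 in replicate 1. Its log2 ratio of replicate 2 over replicate 1 was 1.23, and its deposited posterior SD was 0.628% of the count in replicate 2 and 0.820% in replicate 1. By mean TPM it would stand behind Hist2h2aa1 alone among the H2A genes. Hist3h2bb-ps had 1.03 TPM in replicate 2 and 1.16 TPM in replicate 1, a mean of 1.10 TPM. A further pseudogene row, Hist1h2aj, drew 0 counts in both libraries.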

How the results depend on the processing

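Of 120 alternative values for 17 results, 101 stayed within the spread between replicates or, for counts and ratios, within 1.5 times, 19 moved further and 0 changed sign. For shares, the value from 1 library alone lies within the SD of both libraries by construction. Such values could not count as moved, and they say nothing of how firm a share is. Most that moved did so with length. In counts not divided by length, the members held 0.665% of the protein-coding sum in place of 3.76% of TPM (mean of both libraries), H1 held 20.3% of the member sum in place of 9.83%, H3 8.79% in place of 6.56% and H4 27.5% in place of 41.1%. The protein of Hist1h2ai then held 34.7% of H2A in place of 41.9%, that of Hist1h2bg 44.7% of H2B in place of 29.8%, and that of Hist1h3b 82.7% of H3 in place of 68.4%. Per annotated length, chosen after seeing the data, H1 held 13.2%, H2A 30.1%, H3 7.57% and H4 34.8%, and the same 3 proteins held 39.7%, 33.9% and 74.3% of their classes. Without the highest gene of each class, H2A held 29.8% in place of 28.8% and H4 39.2%. With only members whose posterior SD was at most 0.1 of the count H2A held 27.9%, and with the pseudogene rows added, also chosen after seeing the data, 31.7%. The number of members 2-fold or more higher in replicate 2 was 39 of 58, and 16 of 22 when copies were summed by protein, which leaves fewer units; under other scalings, filters and prior counts it ran from 39 to 42. With a minimum of 10 counts it was 40 of 59, where 3.39% of all genes were called, and with no minimum 40 of 64, where 17.6% were. Of the 58, 53 passed 1.5-fold, where 4.79% of all genes did. The median log2 ratio of the members ran from 1.09 to 1.17, and that of the histone variants was 0.02 with no minimum count in place of 0.14. With replicate 2 alone the members held 5.20% of protein-coding TPM, and with replicate 1 alone 2.32%. The ratio between replicates needs both libraries, so neither could be left out of it. No paired analysis was possible because the labels give 1 group. Hist1h4k and 10 other members had models of exactly the coding length, which limits what TPM can say of them.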
